A study of Solanum lycopersicum x Solanum pennellii and Solanum lycopersicum and Solanum pennellii with 305 samples.

Results

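The genes for the last 2 enzymes of ethylene synthesis were examined in tomato root tips. The set holds 10 genes, 5 for 1-aminocyclopropane-1-carboxylate synthase (ACC synthase, ACS) and 5 for ACC oxidase (ACO), and its members were found in the table of raw read counts by the first 14 characters of the gene ID. Of the 10 members, 8 of the 29633 genes in the count table matched, 4 ACS and 4 ACO, and 7 of these were abundant enough to be among the 19591 genes that were tested. The ACS gene Solyc08g081550 and the ACO gene Solyc07g049530 were not analysed here. The digits right after "Solyc" in an ID give the chromosome, and the genes are called by their ID and enzyme class throughout.

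RNA was sequenced from root tips of Solanum lycopersicum cv. M82, of its wild relative Solanum pennellii (accession LA0716, labelled PENN), and of 75 introgression lines (ILs). Each IL is M82 with S. pennellii DNA on 1 chromosome, so M82 and the ILs share the M82 background elsewhere, and each line stands for many introgressed genes rather than for 1 gene. Each library holds RNA of 7 to 14 pooled tips, 1 cm long, of seedlings on vertical plates, harvested 3 to 4 days after germination with no agent named as a treatment. M82 had 4 libraries, PENN had 3, and the ILs had 298 in all, with 4 libraries per line except for IL7-5 and IL9-1-2, which had 3.

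Ethylene is a gaseous hormone made from S-adenosylmethionine through a short pathway. ACS enzymes convert S-adenosylmethionine into ACC, the step that is usually held to limit the rate, and ACO enzymes convert ACC into ethylene. Both enzymes are encoded by gene families whose members are used in different organs and conditions, and in roots ethylene is known to restrain elongation, to promote root hairs and to act together with auxin in growth responses.

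The libraries held 3078847 to 4835467 counted reads in M82, 4174630 to 5659441 in PENN and 683199 to 11338423 in the ILs (median 4286682). Values below are read counts scaled to library size (CPM, the counts per 1e6 reads), scaled between libraries by the TMM method, so in a median M82 library 1 CPM stood for about 4.2 reads. Read counts are not corrected for gene length, and CPM values are therefore compared between genotypes and not between genes. All 4 genes fixed as root markers had reads in every group, with a summed level of 230 to 253 CPM in M82, 215 to 244 in PENN and 169 to 368 in the ILs. Of the 5 shoot markers 4 were in the table, all 4 with reads in each group, and their summed level was 15.9 to 20.5 CPM in M82, 13.3 to 50.8 in PENN and 2.39 to 64.9 in the ILs. The part of tissue composition in the results was not tested. A root tip is a mixture of cell types, and in such samples fewer cells of a type and less RNA per cell cannot be told apart.

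The ACS genes were found at low read numbers. Solyc05g050010 had 4 reads over all 305 libraries, 1 read in each of 4 libraries, one of them a PENN library. It had no read in M82, which allows up to 0.184 CPM over the pooled M82 reads, and no read in IL5-3, the line that carries its S. pennellii copy, which allows up to 0.166 CPM. These limits cover counting error only. Solyc01g095080 had 822 reads over all libraries and a mean of 0.582 CPM, and Solyc08g008100 had 1235 reads and a mean of 0.894 CPM. The median of the 305 libraries held 2 reads of the first and 3 of the second. Solyc02g091990 was detected in all 305 libraries with 5428 reads and a mean of 3.84 CPM.

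The ACO genes fell into 2 with many reads and 2 with few. Solyc02g081190 had 146057 reads and a mean of 104 CPM over all libraries, and Solyc12g005940 had 119675 reads and a mean of 85.0 CPM. Solyc02g036350 had 9585 reads (mean 6.71 CPM) and was seen in all 305 libraries, whereas Solyc07g049550 had 5819 reads (mean 4.04 CPM) and was seen in 298 libraries. The ID of Solyc07g049550 lies close to that of Solyc07g049530, and whether reads of closely related ACO copies were divided between such genes was not tested.

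The first comparison asked whether the 2 parents differ in these genes. S. pennellii had more reads of 2 ACO genes than M82 and fewer of another, while none of the 3 tested ACS genes was called. Thus 3 of the 7 tested members were called at an adjusted p of at most 0.01 (edgeR quasi-likelihood test, Benjamini-Hochberg adjustment over all genes tested), beside a background in which 35.6% of all tested genes were called between the parents. With 7 genes this count lies near the background. The part of read mapping and of gene length in differences between the 2 species was not tested.

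Solyc02g036350 was at 10.6, 8.94, 6.57 and 10.7 CPM in the M82 libraries and at 46.7, 66.0 and 51.9 CPM in the PENN libraries. The groups did not overlap, and the PENN mean of 54.9 ± 10.01 CPM (SD, n = 3) was 5.96 times the M82 mean of 9.2 ± 1.93 (SD, n = 4), a log2 fold change of 2.57 (SE 0.29, adjusted p = 6.7e-15). Solyc07g049550 was at 6.72, 3.18, 3.29 and 5.05 CPM in M82 and at 27.3, 33.7 and 26.7 CPM in PENN. Here too every PENN library lay above every M82 library, and the log2 fold change was 2.71 (SE 0.43, adjusted p = 1.1e-08). Both genes kept their direction and their call under every alternative run.

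Solyc02g081190 went the other way. It was at 123, 83.1, 78.3 and 64.1 CPM in M82 and at 54.7, 40.2 and 38.3 CPM in PENN. The highest PENN library lay below the lowest M82 library, the log2 fold change was -0.97 (SE 0.25, adjusted p = 5.6e-04), and the PENN mean was 0.509 of the M82 mean. This call was lost without M82 replicate 1, the highest M82 library (log2 fold change -0.77, adjusted p = 0.0116). It was also lost without replicate 3 or 4 of PENN and all ILs together (-0.91 and -0.83, adjusted p = 0.016 and 0.0114). Solyc12g005940 was at 76.2, 75.5, 88.7 and 73.2 CPM in M82 and at 88.8, 90.04 and 84.1 CPM in PENN. These ranges overlapped and the log2 fold change of 0.16 (SE 0.19, adjusted p = 0.52) was not called.

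**Figure D1:**
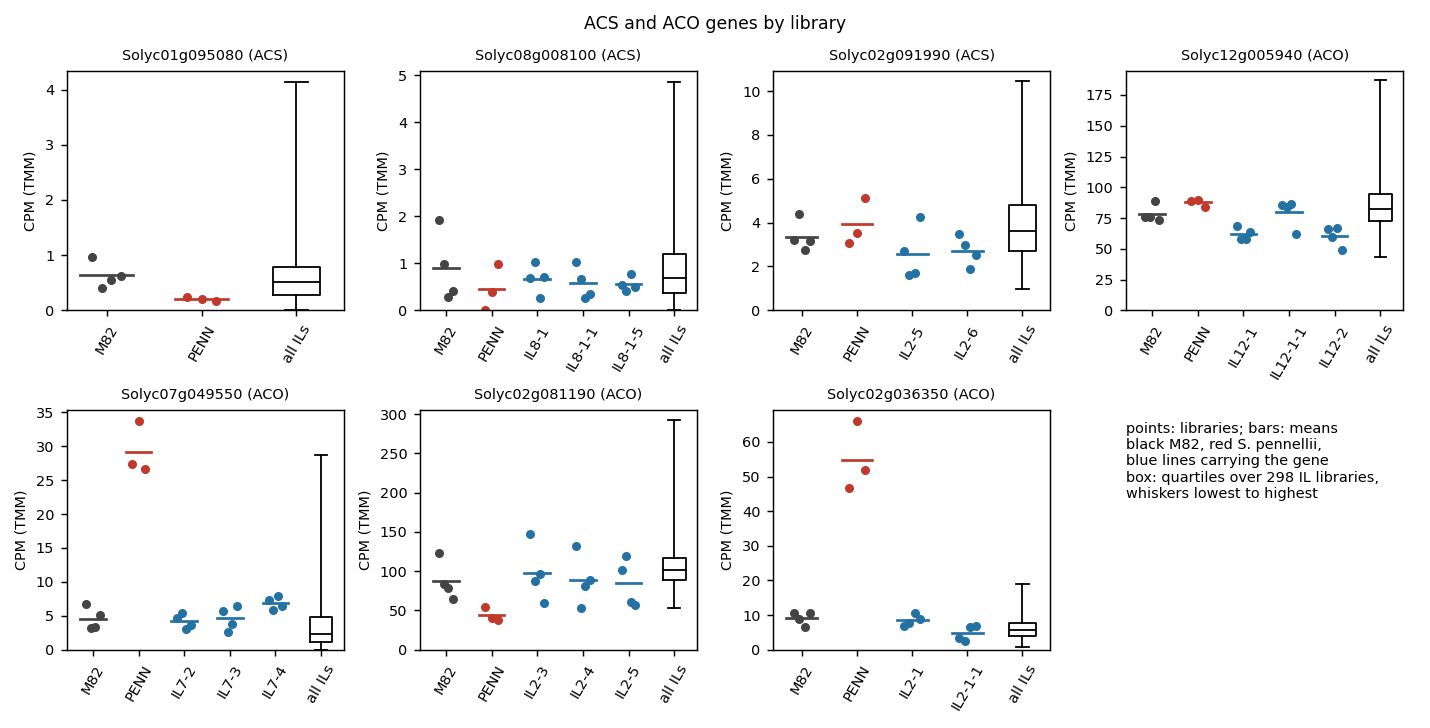
CPM (vertical axes, linear, TMM-scaled) of the 7 tested members in single libraries of M82 (black), PENN (red) and the lines counted as carrying the S. pennellii copy of the gene (blue), with group means as bars; the box gives quartiles and the full range over the 298 IL libraries. For Solyc02g036350 all 3 PENN libraries lie above every IL library, the highest of which is at 18.9 CPM. The lines counted as carrying Solyc07g049550 and Solyc02g036350 lie far below the PENN libraries.

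Among the ACS genes, Solyc02g091990 was at 2.74 to 4.37 CPM in M82 and 3.06 to 5.14 CPM in PENN (log2 fold change 0.22, SE 0.34, adjusted p = 0.62). Solyc08g008100 was at 0.274 to 1.92 CPM in M82 and at 0, 0.394 and 0.995 CPM in PENN (log2 fold change -0.68, SE 0.73, adjusted p = 0.47). Solyc01g095080 was at 0.397 to 0.960 CPM in M82, from 10 reads in all, and each PENN library held 1 read of it, at 0.166 to 0.236 CPM. Although these groups did not overlap, the log2 fold change of -1.51 (SE 0.91, adjusted p = 0.17) was not called at this depth.

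As a description of how the reads were divided, the share of each gene among the summed CPM of the 4 ACO genes was taken in each library. These are shares of reads and not of transcripts, since longer transcripts give more reads. In M82 Solyc02g081190 took 47.9% ± 6.59 and Solyc12g005940 44.3% ± 6.59 (SD, n = 4), with 5.21% for Solyc02g036350 and 2.53% for Solyc07g049550. In PENN the share of Solyc02g081190 was 20.6% ± 4.04 (SD, n = 3), that of Solyc02g036350 25.3% and that of Solyc07g049550 13.5%, while Solyc12g005940 was at 40.6%. The summed level itself was 153 to 217 CPM in M82 and 201 to 230 CPM in PENN, ranges that overlap.

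The S. pennellii copy of each gene sits in a few lines only, so the next comparison asked whether those lines differ in it from the other lines. A line was taken to carry a gene where the gene lay between the outermost genes labelled cis for that line in the deposited table. By this rule 3 lines carried Solyc08g008100 (IL8-1, IL8-1-1, IL8-1-5), 2 carried Solyc02g091990 (IL2-5, IL2-6), 3 carried Solyc12g005940 (IL12-1, IL12-1-1, IL12-2), 3 carried Solyc07g049550 (IL7-2, IL7-3, IL7-4), 3 carried Solyc02g081190 (IL2-3, IL2-4, IL2-5) and 2 carried Solyc02g036350 (IL2-1, IL2-1-1). In IL2-1 Solyc02g036350 is labelled cis, but in IL2-1-1 the gene and those next to it are labelled trans. The study set these labels from the positions of genes and introgressions, which it calls approximate. By its label IL2-1-1 does not hold the S. pennellii copy, and the line is counted as carrying by the rule alone. No line analysed here carried Solyc01g095080. For each gene the mean of the carrying lines was compared with the mean of the 65 to 68 lines whose segment is on another chromosome. The SE and p-value of this contrast come from the spread between libraries of a line. They leave out the spread between lines, so they do not say how far other sets of lines would differ. Inside a segment the reads had been mapped to S. pennellii sequence and elsewhere to M82 sequence, and the part of this in any difference was not tested.

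Of the 6 genes 2 were called in this comparison, both ACO genes and in opposite directions, where over all genes and the 6 contrasts together 7.9% were called. Most of those genes lie outside the segments of the carrying lines, and the share among carried genes alone was not taken. The count of the 6 is therefore not set against like genes. Solyc07g049550 was at 2.98 to 5.45 CPM in IL7-2, 2.66 to 6.48 in IL7-3 and 5.80 to 7.86 in IL7-4, beside a median line mean of 2.4 CPM in the lines of other chromosomes. The contrast gave a log2 fold change of 1.01 (SE 0.23, adjusted p = 5.3e-04), where 3.64% of all genes were called in the same contrast. Taken singly against the same lines, IL7-4 was called (1.42, SE 0.35, adjusted p = 0.0028) and IL7-2 and IL7-3 were not (0.75 and 0.87, adjusted p = 0.34 and 0.23). The call was lost without replicate 1 (0.92, adjusted p = 0.0162) or replicate 4 (0.94, adjusted p = 0.0121) of the lines, and against M82 alone the difference was 0.20 (adjusted p = 0.927). M82 itself, with 4.56 CPM, lay above 53 of the 75 ILs in this gene. On the same chromosome IL7-4-1 and IL7-5, which do not carry the gene, were at 8.64 and 9.95 CPM, above all 3 carrying lines. Against the lines of other chromosomes they were called too (1.82 and 1.87, adjusted p = 6.3e-07 and 4.9e-05), as was IL7-5-P75 (1.37, adjusted p = 0.0075), which does not carry it either. The spans of IL7-4-1, IL7-5 and IL7-5-P75 lie within that of IL7-4. So do those of IL7-5-1 and IL7-5-5, which were at 1.32 and 2.28 CPM and were not called.

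Solyc12g005940 was lower in its carrying lines. It was at 68.3, 58.1, 58.3 and 63.5 CPM in IL12-1 and at 66.4, 59.6, 66.7 and 49.3 CPM in IL12-2, but at 85.6, 84.0, 86.5 and 62.4 CPM in IL12-1-1, beside a median of 82.5 CPM over the lines of other chromosomes. All 8 libraries of IL12-1 and IL12-2 lay below the 4 M82 libraries, whereas IL12-1-1 overlapped with M82. The joint log2 fold change was -0.35 (SE 0.08, adjusted p = 5.3e-04; 8.1% of all genes called), yet no single line passed the threshold against the lines of other chromosomes (adjusted p = 0.069 for IL12-1, 0.77 for IL12-1-1 and 0.015 for IL12-2). Without replicate 3 or replicate 4 the adjusted p was 0.011 and 0.0116, and against M82 alone it was 0.50 with a log2 fold change of -0.23. PENN, at a mean of 87.6 CPM, was not below M82 in this gene.

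The other 4 genes were not called. Solyc02g091990 was at a mean of 2.63 CPM over IL2-5 and IL2-6 against a median of 3.88 CPM in the lines of other chromosomes (log2 fold change -0.63, SE 0.17, adjusted p = 0.012; 3.19% of all genes called), and it passed the threshold once the replicate number was taken as a block (-0.63, adjusted p = 0.0059). Solyc02g081190 had a log2 fold change of -0.21 (SE 0.09, adjusted p = 0.067), in a contrast in which 27.2% of all genes were called. Without replicate 1 it was called (-0.37, adjusted p = 0.0025). Solyc02g036350 had 0.14 (SE 0.18, adjusted p = 0.73, 1.48% of all genes called). Without IL2-1-1, in which this gene and those next to it are labelled trans, the value was 0.56 (adjusted p = 0.45). Solyc08g008100 had -0.27 (SE 0.30, adjusted p = 0.60; 3.85% of all genes called).

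The level of S. pennellii was then compared with that of the lines counted as carrying the same S. pennellii gene in an M82 background. For the 3 ACO genes that differed between the parents, PENN also differed from the carrying lines. Both comparisons use the same 3 PENN libraries, so the second is not independent of the first. Solyc02g036350 was at 6.92 to 10.7 CPM in IL2-1 and 2.45 to 6.82 CPM in IL2-1-1, where it is labelled trans. Against both lines together PENN was higher by 3.11 on the log2 scale (SE 0.24, adjusted p = 1.4e-27). Solyc07g049550 was higher in PENN by 2.51 (SE 0.31, adjusted p = 3.6e-13). Solyc02g081190 was at 52.9 to 148 CPM over the 12 libraries of IL2-3, IL2-4 and IL2-5 and lower in PENN by a log2 fold change of -1.03 (SE 0.22, adjusted p = 2.5e-05). Over all genes and the 6 contrasts together 41.3% were called, and 40.1%, 41.5% and 39.3% in the contrasts of these 3 genes. The other 3 genes were not called in this fit. Solyc12g005940 had a log2 fold change of 0.39 (SE 0.16, adjusted p = 0.030; 44.5% of all genes called), Solyc02g091990 had 0.71 (SE 0.30, adjusted p = 0.041; 39.3% called) and Solyc08g008100 had -0.25 (SE 0.64, adjusted p = 0.77; 43% of all genes called). Calls were gained for Solyc12g005940 with RLE size factors (0.47, adjusted p = 0.0095) and without replicate 1 (0.49, adjusted p = 0.0083), and for Solyc02g091990 without replicate 1 (1.03, adjusted p = 0.0094). The carrying lines thus did not reach the PENN level of Solyc02g036350 or Solyc07g049550 in any library.

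**Figure D2:**
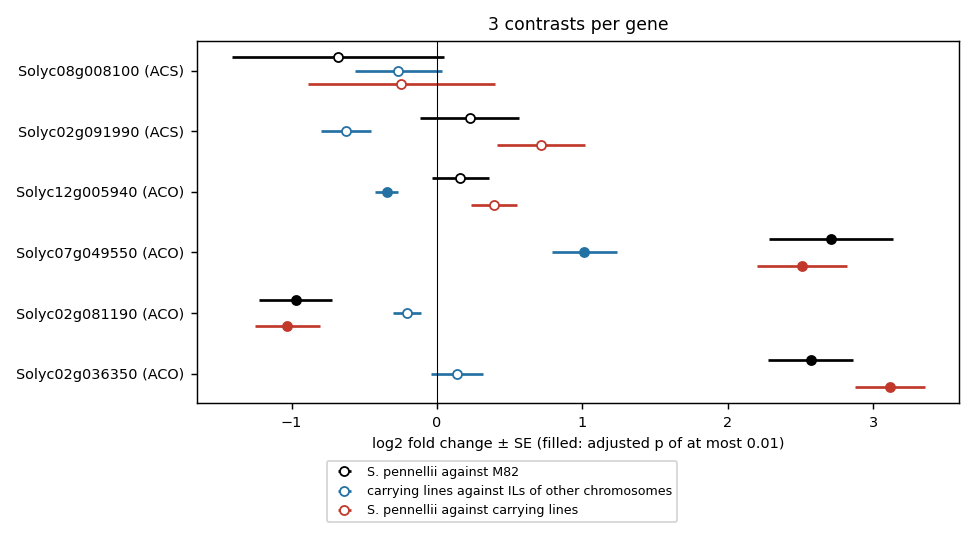
Log2 fold change ± SE (horizontal axis) of the 6 tested members that some line carries, in 3 contrasts: PENN against M82 (black), carrying lines against lines of other chromosomes (blue) and PENN against carrying lines (red), with filled points at an adjusted p of at most 0.01. The black and red points of Solyc02g036350 (2.57 and 3.11), Solyc07g049550 (2.71 and 2.51) and Solyc02g081190 (-0.97 and -1.03) lie close together, whereas the blue points lie between -0.63 and 1.01. The black and red contrasts share the PENN libraries.

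The spread of the members over the lines was examined next. A test of any difference among M82 and the 75 ILs called 6 of the 7 members, beside 70.4% of all genes, and left out Solyc01g095080 (adjusted p = 0.26). The smallest adjusted p of the members, 1.3e-39, was that of Solyc07g049550, whose line means ran from 0.413 CPM in IL12-1 to 18.3 CPM in IL2-2, a 44.2-fold range. Solyc08g008100 ranged 23.3-fold (0.124 to 2.90 CPM), Solyc02g036350 6.79-fold (1.91 to 12.9 CPM) and Solyc02g091990 3.37-fold (2.12 to 7.15 CPM). The 2 ACO genes with the most reads ranged least, Solyc02g081190 2.34-fold (71.7 to 168 CPM) and Solyc12g005940 2.02-fold (60.3 to 122 CPM). The range of a gene with few reads includes more counting error. The median coefficient of variation between libraries of 1 line was 14.6% for Solyc12g005940 and 16.8% for Solyc02g081190, against 58.9% for Solyc07g049550 and 60.2% for Solyc08g008100. For Solyc07g049550 the coefficient of variation of the line means, 95.8%, was above that within lines, while for Solyc12g005940 both were 14.6%. A mean of 3 or 4 libraries varies less than single libraries do, so equal values do not mean that the lines were alike. The test of any difference called Solyc12g005940 as well (adjusted p = 1.2e-07).

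Each IL was compared with M82, as the study did, and these 75 comparisons all use the same 4 M82 libraries. Of 525 combinations of a member and a line, 10 were called in 9 lines, 5 higher and 5 lower. That is 1.9% of the combinations, and over all genes and lines 1.47% were called (0.807% higher and 0.662% lower). At an adjusted p of at most 0.05 there were 24. None of the 16 combinations in which the line is counted as carrying the gene was called by edgeR's quasi-likelihood test (2 had an unadjusted p under 0.05), by its exact test or by DESeq2. The share called among carried genes was not taken, so this 0 is not set against like genes. At a share of 1.47% a 0 among 16 is common. The 16 include Solyc02g036350 in IL2-1-1, where it is labelled trans.

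**Figure D3:**
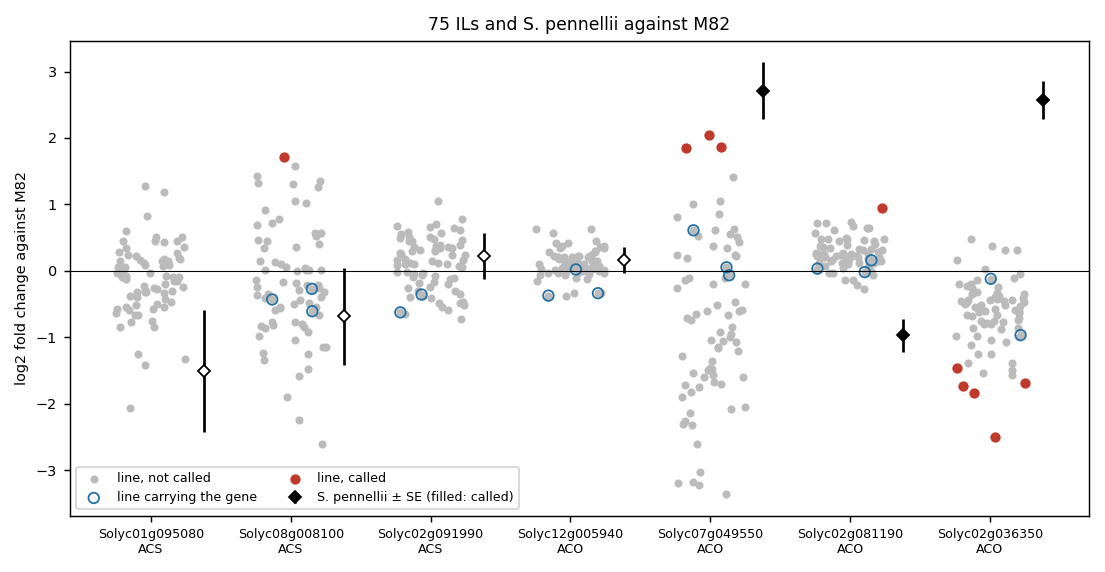
Log2 fold change against M82 (vertical axis) of the 7 tested members in each of the 75 ILs (points, red where called at an adjusted p of at most 0.01, ringed in blue where the line is counted as carrying the gene) and in PENN (diamonds ± SE, filled where called). The 10 red points belong to 4 genes, and none of them is ringed.

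Solyc02g036350, which was higher in PENN than in M82, was lower than M82 in all 5 of the lines in which it was called. In IL9-1-3 it was at 0.865, 3.46, 1.73 and 1.57 CPM, each below the lowest M82 library, with a log2 fold change of -2.50 (SE 0.44, adjusted p = 7.6e-06), and it was the 1 combination of the 10 that was called under all 14 alternatives. The other lines were IL12-1-1 (mean 2.62 ± 0.53 CPM, SD, n = 4; log2 fold change -1.83), IL10-3 (2.75 ± 0.98, -1.73), IL9-2 (3.00 ± 2.39, -1.68) and IL2-5 (3.22 ± 0.87, -1.47), all with ranges below that of M82. Their adjusted p ran from 0.0013 to 0.0097. Leaving out libraries ended these calls, with a replicate number left out of all ILs and PENN at once and M82 replicates left out singly. The call in IL12-1-1 was lost without replicate 1 or 4 (adjusted p = 0.0109 and 0.0105) and that in IL2-5 without replicate 3 (0.0191). The call in IL10-3 was lost without any 1 of the replicate numbers (0.0134 to 0.0333) and without M82 replicate 1 or 2 (0.0206 and 0.0148). In IL9-2 it was lost without replicate 2, 3 or 4 (0.0276 to 0.0671) and without M82 replicate 1 or 2 (0.0251 and 0.0272), and also with RLE size factors (0.0108), with no filter on low counts (0.0119) and with DESeq2 (0.0816). Without M82 replicate 4, none of these 4 lines was called by edgeR's quasi-likelihood test (adjusted p = 0.0108 to 0.0523), nor was any of them against the lines of other chromosomes (0.0141 to 0.0554).

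M82 stood high among the lines in this gene. Its mean of 9.2 CPM was above that of 70 of the 75 ILs, whose median was 6.08 CPM, and only IL2-2, IL2-4, IL2-3, IL12-2 and IL7-3 (10.24 to 12.9 CPM) were above it. Against the mean of all 75 lines M82 was higher by 0.66 on the log2 scale (SE 0.24, unadjusted p = 0.0060, adjusted p = 0.57), which was not called. In this comparison edgeR's quasi-likelihood test called none of the 7 members, 1 having an unadjusted p under 0.05, and 0.0715% of all genes (0.051% higher and 0.0204% lower in M82). IL9-2 and IL9-1-3, both called, have spans between their outermost cis genes that overlap in 1255 genes of chromosome 9, and IL9-1, whose span covers the same genes, was at 3.85 ± 0.47 CPM (log2 fold change -1.25, SE 0.36, adjusted p = 0.097). IL9-2-5, whose span shares 77 of these genes, was at 3.17 ± 0.68 CPM (log2 fold change -1.49, SE 0.39, adjusted p = 0.021). IL9-2-6, whose span shares 757 of them, was at 7.13 ± 2.53 CPM, and IL9-3, which shares 81, at 6.96 ± 2.51 CPM. For IL9-1-3, IL9-1 and IL9-2-6 the overlap is not shown to be shared introgression. Inside their spans 355 labelled genes were trans and 138 cis in IL9-1-3, 390 and 103 in IL9-1 and 86 and 67 in IL9-2-6. IL9-2 had 223 cis and 0 trans, IL9-2-5 had 22 and 0, and IL9-3 had 123 and 1. All 122 genes in the span of IL12-1-1 also lie in those of IL12-1 and IL12-2. These lines were at 7.36 and 11.9 CPM and were not called against M82 (log2 fold change -0.35 and 0.37). All 361 genes in the span of IL10-3 lie in that of IL10-2, at 7.43 CPM and not called either (-0.34, adjusted p = 0.84). Inside their whole spans IL12-1 had 0 trans genes, IL12-2 had 25 and IL10-2 had 36. The span of IL2-5 shares 76 genes with that of IL2-3 and 398 with that of IL2-4, lines at 11.7 and 11.6 CPM. It shares 296 genes with that of IL2-6 and 17 with that of IL2-6-5, lines at 4.45 and 3.76 CPM. None of these lines was called against M82 (adjusted p = 0.083 to 0.66, edgeR's quasi-likelihood test).

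Solyc07g049550 was called higher than M82 in 3 lines. It was at 8.38, 22.1, 20.2 and 22.5 CPM in IL2-2 (log2 fold change 2.04, SE 0.43, adjusted p = 0.0012), at 8.43, 14.99, 13.7 and 26.4 CPM in IL6-1 (1.86, SE 0.43, adjusted p = 0.0012) and at 28.7, 15.5, 16.8 and 6.23 CPM in IL2-3 (1.85, SE 0.44, adjusted p = 0.0016). All libraries of IL2-2 and IL6-1 lay above M82, and 1 library of IL2-3 lay within the M82 range. With a replicate number left out of all ILs and PENN, the call in IL2-2 was lost without replicate 2 (adjusted p = 0.0186). That in IL6-1 was lost without replicate 4 (0.0301) and that in IL2-3 without replicate 1 (0.0286). Without M82 replicate 2, the lowest in this gene, all 3 calls were lost (0.0143 to 0.0217). Without M82 replicate 3 those in IL2-2 and IL2-3 were lost (0.0122 and 0.0114). With edgeR's exact test, all 3 were lost (adjusted p = 0.0744 in IL2-2, 0.0336 in IL2-3 and 0.0477 in IL6-1). The segments of IL2-2 and IL2-3 overlap in 81 genes of chromosome 2, and neither holds Solyc07g049550. IL2-1, which shares 78 other genes with IL2-2, was at 1.14 ± 1.05 CPM, and IL2-4, which shares 760 other genes with IL2-3, at 8.02 ± 1.15 CPM. At the low end IL12-1, IL10-1, IL7-1 and IL12-2 had means of 0.413 to 0.511 CPM, and IL12-1 held 1, 2, 0 and 4 reads. These lines were not called at an adjusted p of at most 0.01, and 5 lines were lower than M82 at 0.05.

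**Figure D4:**
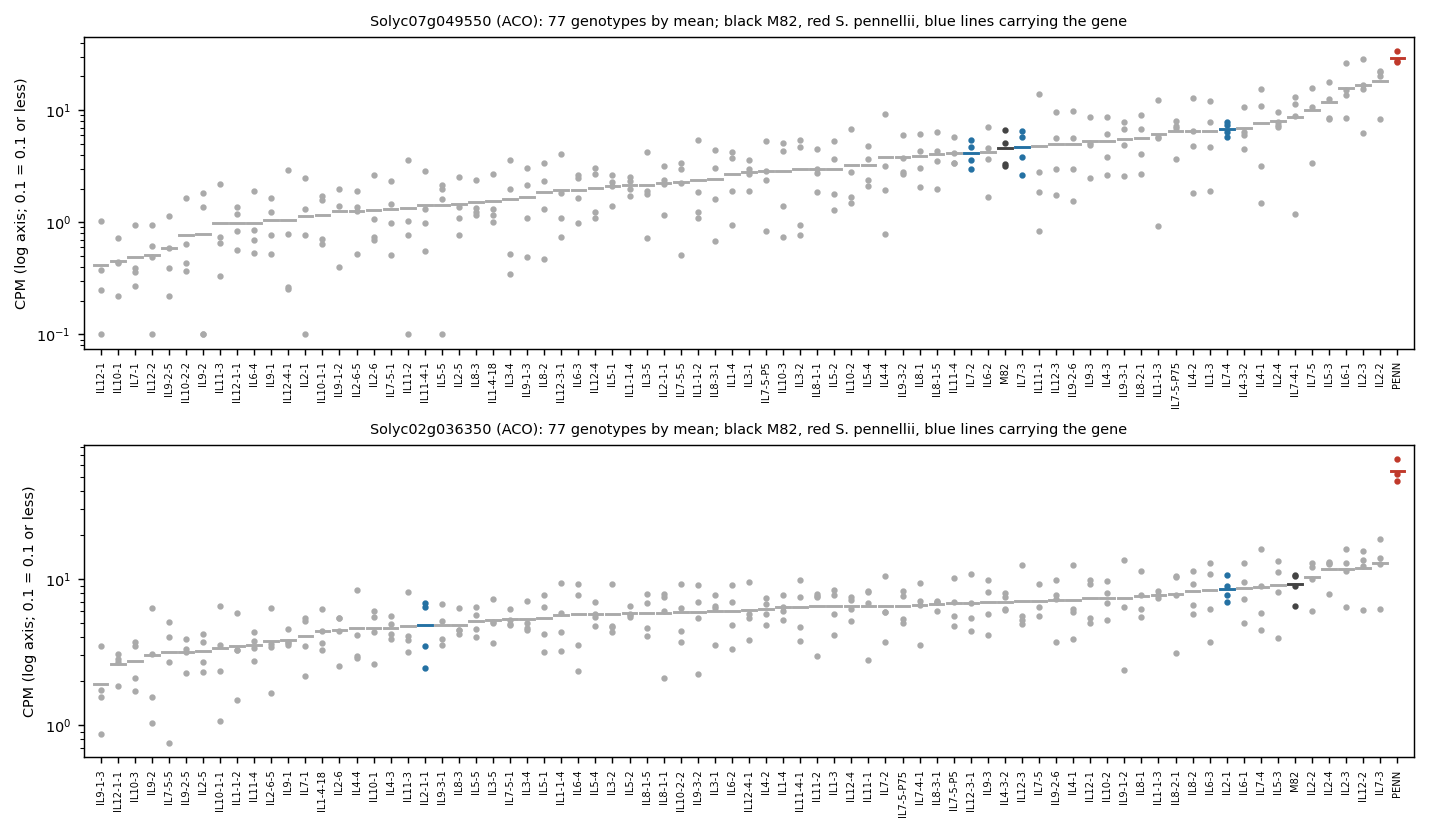
CPM (vertical axes, logarithmic) of the ACO genes Solyc07g049550 and Solyc02g036350 in the 77 genotypes, ordered by mean (bars), with single libraries as points and values under 0.1 drawn at 0.1; M82 is black, PENN red and lines counted as carrying the gene blue. PENN stands at the top for both genes (means 29.2 and 54.9 CPM), above IL2-2 (18.3 CPM) for the first and IL7-3 (12.9 CPM) for the second, and M82 lies above 53 lines in the first and 70 lines in the second.

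The neighbours in these orders often did not differ beyond their spread. For Solyc07g049550, IL2-2, IL2-3 and IL6-1 had means of 18.3 ± 6.68, 16.8 ± 9.22 and 15.9 ± 7.58 CPM (SD, n = 4 each), followed by IL5-3 at 11.8 CPM, and their libraries overlapped. PENN at 29.2 ± 3.87 CPM (SD, n = 3) was overlapped by 1 of the 298 IL libraries, replicate 1 of IL2-3 at 28.7 CPM. For Solyc02g036350 no IL library reached the lowest PENN library.

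The remaining 2 calls against M82 rested on fewer reads or on 1 library. Solyc02g081190 was higher than M82 in IL9-2 (293, 137, 136 and 107 CPM, log2 fold change 0.95, SE 0.22, adjusted p = 0.0031). Without replicate 1 of all ILs and PENN, the log2 fold change was 0.53 and the call was lost (adjusted p = 0.258). It was also lost without M82 replicate 2, 3 or 4 (adjusted p = 0.0209, 0.0201 and 0.0516) and with DESeq2 (0.296). In that line Solyc02g036350 was highest in the same replicate 1, at 6.35 CPM against 1.04 to 3.05 CPM in the other libraries. The ACS gene Solyc08g008100 was higher in IL12-3 (7, 13, 2 and 15 reads, 2.63, 4.86, 0.578 and 3.53 CPM; log2 fold change 1.71, SE 0.52, adjusted p = 0.0075), with ranges that overlapped with M82 (6, 5, 1 and 2 reads). This call was lost without replicate 1, 2 or 4 of all ILs and PENN (adjusted p = 0.0174 to 0.0474) and without M82 replicate 2, 3 or 4 (0.0132 to 0.0359). It was also lost with no filter (0.0113), with edgeR's exact test (0.020) and with DESeq2 (0.0728). In IL12-3 3032 of the 19591 genes were called. Solyc12g005940, Solyc02g091990 and Solyc01g095080 were called in no line against M82 by this test, with 11, 7 and 3 lines at an unadjusted p under 0.05.

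When the lines with a segment on another chromosome were taken as the reference in place of M82, 33 of the 525 combinations were called, 31 higher and 2 lower, where 3.68% of all genes and lines were called (2.29% higher and 1.39% lower). In 14 lines the ACO gene Solyc07g049550 was higher, with the largest changes in IL2-2 (2.83, adjusted p = 1.5e-20), IL2-3 (2.64), IL6-1 (2.63) and IL5-3 (2.19). Of the 14, 4 were lines of chromosome 4 with means of 5.31 to 7.73 CPM. IL7-4, IL7-4-1, IL7-5 and IL7-5-P75 of chromosome 7 were also among the 14, and of these only IL7-4 carries the gene. The ACS gene Solyc08g008100 was higher in 7 lines, by 1.5 to 1.88 on the log2 scale, among them IL2-3, IL2-4, IL5-3 and IL6-1. Solyc02g036350 was higher in 5 lines (IL2-2, IL2-3, IL2-4, IL7-3 and IL12-2) and lower in IL9-1-3. Solyc12g005940 was higher in IL2-2, IL7-5 and IL8-1 (0.47 to 0.54). Solyc02g091990 was higher in IL12-2 (7.15 ± 1.05 CPM; 0.98, SE 0.19, adjusted p = 7.5e-05). Solyc02g081190 was higher in IL9-2 and lower in IL4-3-2 (71.7 ± 9.26 CPM; -0.54, adjusted p = 0.00999).

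Across the 75 ILs the members were compared pairwise by the correlation of their line means, log2(CPM + 0.5), as a description. The lines share the M82 background and sequencing pools, and genes with few reads carry counting error into the value. The highest Pearson r was that of the ACS gene Solyc08g008100 with the ACO gene Solyc07g049550 (r = 0.63, Spearman's rho = 0.56), followed by the ACO pairs Solyc12g005940 with Solyc07g049550 (0.54, rho 0.48) and Solyc07g049550 with Solyc02g036350 (0.49, rho 0.50). The ACS gene Solyc02g091990 ran opposite to Solyc12g005940 (r = -0.50, rho -0.47). Solyc02g081190 and Solyc12g005940, the ACO genes with the most reads, had r = 0.15. Solyc01g095080, with a median of 2 reads per library, had r between -0.09 and 0.16 with the other members.

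**Figure D5:**
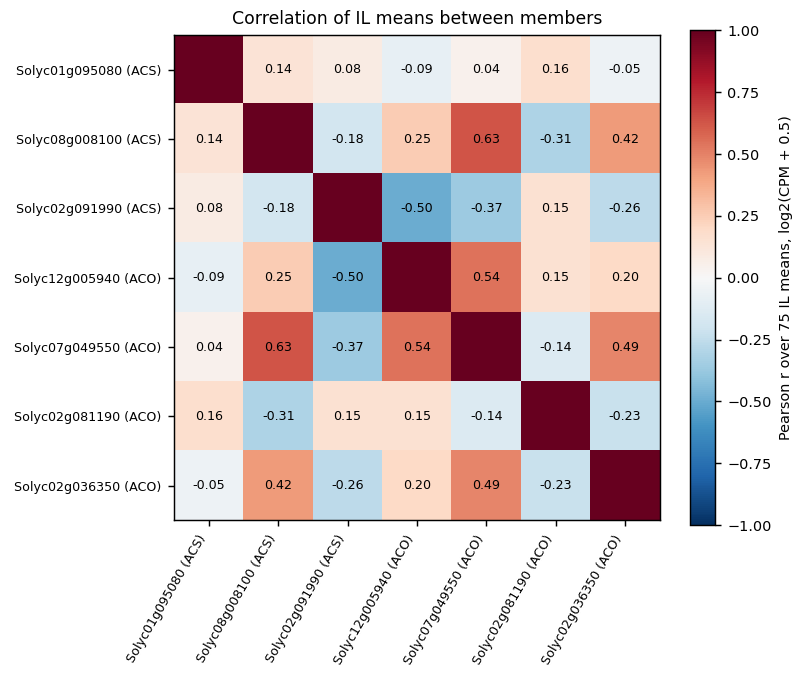
Pearson r (colour scale and printed values) between the 7 tested members over the mean log2(CPM + 0.5) of the 75 ILs. Solyc07g049550, Solyc08g008100, Solyc12g005940 and Solyc02g036350 have r of 0.20 to 0.63 with each other, and Solyc02g091990 has negative r with these 4 genes, from -0.18 to -0.50.

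For the 3 members whose mean reached 5 CPM, the other genes whose genotype means were most like theirs over the 77 genotypes were Solyc07g065030 (r = 0.65) and Solyc06g075360 (r = 0.65) for Solyc12g005940, Solyc04g074740 (r = 0.76) and Solyc06g074230 (r = 0.71) for Solyc02g081190, and Solyc01g100490 (r = 0.71) and Solyc05g015950 (r = 0.69) for Solyc02g036350. Over the 75 ILs alone the values for Solyc02g036350 were 0.55 and 0.61, below those with the parents included.

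The rest of the pathway was read from 2 lists. Of 9 further genes listed for S-adenosylmethionine synthetase, ACS and ACO, 8 were tested, and between the parents 3 were higher in PENN, 1 was lower and 4 were not called (median log2 fold change 0.11), where 35.6% of all genes were called, 17.8% higher and 17.9% lower. Of 18 genes listed for ethylene receptors and signalling, all tested, 2 were higher, 3 lower and 13 not called (median -0.14) beside the same background, and the median over all tested genes was -0.05. Against M82, the first list was called in 8 of 600 combinations with a line (7 higher, 1 lower; 1.33%) and the second in 21 of 1350 (5 higher, 16 lower; 1.56%), where 1.47% of all genes and lines were called.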

How the data were processed

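Poly-A RNA of root tips was sequenced in single-end reads. BWA was used by the authors for mapping to coding sequences of a reference built per line, with S. pennellii sequence inside the introgression and M82 sequence elsewhere, and SAMtools for counting. The sources used here do not give their versions. The deposited values used are raw counts per gene and library, and 9 columns of the deposited table that match no sample given here were not used. A second deposited table holds fold changes and p-values of the authors' own comparisons, which were not used; its cis or trans labels alone served to place the segments.

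In R 4.3.3, edgeR 4.0.16 (TMM scaling, filterByExpr, quasi-likelihood test, genotype alone in the model) was fitted once to all 305 libraries, since the genotypes then share 1 estimate of the spread. It kept 19591 of 29633 genes, and 1442 genes had no read. Adjusted p-values are Benjamini-Hochberg values over all genes tested in a comparison, and a gene was called at 0.01 or below. The SE is the log2 fold change divided by the root of F. Contrasts of several lines average the lines' fitted log2 levels. Their SE and p-values hold the spread between libraries of a genotype and not the spread between lines. The method was tested on simulated data. There a gene had the same mean in all genotypes, apart from the changed genes in the lines carrying Solyc07g049550. The simulation thus held no other spread between lines and no shared rounds, and its spread between libraries was set by a formula. Whether the shares called below hold for the data here was not tested. For 1 line against M82, log2 changes of 1 were called for 0% of changed genes under 2 CPM, 9.7% at 2 to 10 CPM and 50% over 10 CPM. Changes of 2 were called for 21.4%, 74.1% and 100%. In the contrast of the lines carrying Solyc07g049550, changes of 1 were called for 45.5%, 90.3% and 100%. Precision is limited by depth, at 683199 to 11338423 reads per library.

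All 10 members and every line in which one was called (the 5 with the largest change where there were over 10) were to be named. Members, lists and tests were chosen with earlier results of these data known, and the comparisons of S. pennellii with carrying lines and of M82 with the mean of the lines were added after the data were seen. The genes of the pathway and marker lists were assigned by ID, and the files do not annotate them. Alternatives were other size factors, no filter, a replicate block, another threshold, edgeR's exact test, DESeq2 1.42.0, other reference lines and leaving out libraries. A replicate number was left out of every IL and PENN at once and the fit was repeated, whereas M82 replicates were left out singly. The study grew its replicates at 4 different times and sequenced libraries of 1 replicate together, so replicate numbers mark shared rounds. Deviations from genotype means correlated on average at 0.0909 for 2 libraries sharing a number and at -0.0296 for 2 that did not, and 48.8% of same-number pairs exceeded 0.1. The libraries are separate pools of seedlings. The highest correlation between 2 libraries was 0.992, and none was merged.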

Additional observations from a re-analysis of the deposited data

Results flagged for a closer look

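In 3 of 33 groups of 4 libraries that were examined, 1 library stood far from the others. Chance gives about 1 in 20 for normally distributed values of groups that were not picked. The 33 groups include lines picked because the member was called in them, so that rate does not apply and no excess is read from the count. Solyc12g005940 was at 62.4 CPM in IL12-1-1 replicate 4, below the other libraries of the line at 84.0 to 86.5 CPM. Solyc07g049550 was at 8.38 CPM in IL2-2 replicate 1, against 20.2 to 22.5 CPM in the others. Solyc02g081190 was at 293 CPM in IL9-2 replicate 1, against 107 to 137 CPM in the others.

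The level in S. pennellii differed from that in the lines counted as carrying the same S. pennellii gene by a log2 fold change of 2.51 for Solyc07g049550, 3.11 for Solyc02g036350 and -1.03 for Solyc02g081190, each tested by its own contrast in edgeR. The cause was not tested.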

How the results depend on the processing

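Of the single values recomputed under the alternatives, 304 kept their direction and their side of the threshold, 61 lost the call, 6 gained one and 4 changed sign, and of the counts 51 stayed within 1.5 times and 13 did not. The 10 calls of ILs against M82 became 24 at an adjusted p of at most 0.05, 30 of 513 with DESeq2 (7 of the 10 kept) and 33 against lines of other chromosomes (6 kept), and edgeR's exact test also made 10 (6 kept). They numbered 5 to 9 without 1 replicate of the lines and 3 to 10 without 1 M82 replicate. The 3 calls of S. pennellii against carrying lines became 5 at 0.05 and ran from 3 to 5 without 1 replicate. The 2 calls of carrying lines against other lines were both lost where every line of the chromosome counted as carrying (adjusted p = 0.17 for Solyc12g005940 and 0.091 for Solyc07g049550), which called 1 other gene, Solyc02g091990 (-0.31, adjusted p = 0.0054). They became 0 against M82 alone (0 at an unadjusted p under 0.05, edgeR quasi-likelihood test) and 0 to 2 without 1 replicate. Against M82 alone the values of carrying lines changed sign for Solyc02g081190 (0.057) and Solyc02g036350 (-0.54). Against other lines Solyc02g036350 ran from -0.021 to 0.31 without 1 replicate, and Solyc08g008100 in S. pennellii against carrying lines from -1.45 to 0.40. The cause was not tested. With the replicate block the calls of ILs against M82 were 12, all 10 kept, and those over all genes rose from 21591 to 26531; for S. pennellii against M82 they were 7355 in place of 6984. Without replicate 2, Solyc01g095080 failed the filter. Genes with a median of 2 or 3 reads per library, Solyc01g095080 and Solyc08g008100, are limited most by depth.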
